A study of Mus musculus with 12 samples.

Results

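A set of 9 genes of the pathways that hold back muscle growth and protein synthesis was followed through 3 tissues of mice treated with corticosterone. They were *Mstn*, *Acvr2b* and *Fst* of the myostatin pathway, *Eif4ebp1* and *Eif4ebp2*, which bind the cap-binding protein eIF4E, the sestrins *Sesn1*, *Sesn2* and *Sesn3*, and *Deptor*. They were chosen by symbol and made up 9 of the 22273 gene symbols listed for gastrocnemius and 9 of the 22252 listed for liver and for gonadal white adipose tissue (WAT). The mice were male, of the strain C57BL/6J, and all carried a floxed glucocorticoid receptor gene, *Nr3c1*. GRf/f mice had no Cre, and GRmKO mice also carried a Cre driven by the promoter of skeletal muscle actin (*Acta1*), which deletes the receptor in muscle fibres and leaves the other cells of the muscle, the liver and the fat with an intact gene. From 8 weeks of age, and for 4 weeks, their drinking water held 1% ethanol, either alone (vehicle) or with 100 µg/mL of corticosterone (CORT), which is the chief glucocorticoid hormone of mice. Each of the 12 libraries was 1 pool of RNA from 3 mice, with 1 library for each tissue, genotype and treatment, so no group had a replicate and no p-value is given.

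Myostatin is a secreted member of the TGF-β family that muscle makes to limit its own size. It binds the activin receptor type IIB, encoded by *Acvr2b*, and signals through SMAD proteins, and follistatin, encoded by *Fst*, binds and neutralises it. The 4E-binding proteins hold eIF4E away from the initiation complex until the kinase mTORC1 phosphorylates them, so they are brakes on the first step of translation. Sestrins are stress-induced proteins that restrain mTORC1, SESN1 and SESN2 as sensors of leucine, and DEPTOR binds mTOR itself and inhibits it. Glucocorticoid excess wastes muscle both by breaking down more protein and by making less of it.

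The libraries held 19394572 to 20940660 expected counts, so a count of 3, taken as the floor, was 0.143 to 0.155 CPM, which is counts scaled to a library total of 1000000. Brackets after a CPM hold its 95% Wilson interval and brackets after a log2 change the 95% exact (Clopper-Pearson) interval of the ratio. Brackets after a difference between the log2 changes of the genotypes hold a 95% interval centred on it. That interval combines the counting errors of the libraries as normal errors. These intervals cover counting error only and not the spread between mice or pools. For log2 changes 0.5 CPM was first added to the 2 levels, but not for the exact intervals. For genes with few counts the exact interval can therefore lie further from 0 than the change. A gene was called higher or lower when it changed at least 1.5-fold and the interval of its ratio left out 1. *Nr3c1* was called lower in GRmKO gastrocnemius, at 46.4 against 113 CPM under vehicle and 35.5 against 90.4 CPM under CORT, and in liver it stood at 58, 45.2, 60.9 and 49.6 CPM in vehicle- and CORT-treated GRf/f and vehicle- and CORT-treated GRmKO mice. Of the marker genes of skeletal muscle fibres, all 8 were present in each gastrocnemius library, summing to 89000 to 121632 CPM. All 9 hepatocyte markers listed in the files were present in each liver library, and all 8 adipocyte markers in each gonadal WAT library. Markers of other cell types differed between the gastrocnemius libraries, and their values are given with *Fst* and *Eif4ebp1*. In bulk tissue, fewer cells of a type and less RNA per cell cannot be told apart.

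Each deposited value carries the identifier of 1 transcript, and the same transcript stood for the gene in all 3 tissues for 8 of the 9 genes, *Mstn* in gonadal WAT being the exception. For the start regions, RefSeq sequences (GRCm38.p6) matched 6 of the 9 genes. The 250 bases before the start are shown for *Mstn*, the muscle-specific gene of the group, and for the *Sesn1* start that the counted transcript uses, because *Sesn1* changed most with CORT. Capitals mark E-boxes, the letters CANNTG that muscle transcription factors of the MyoD family can bind. The *Mstn* sequence lies at chr1:53061390-53061639 (plus strand) and the *Sesn1* sequence at chr10:41887189-41887438 (plus strand).
Mstn: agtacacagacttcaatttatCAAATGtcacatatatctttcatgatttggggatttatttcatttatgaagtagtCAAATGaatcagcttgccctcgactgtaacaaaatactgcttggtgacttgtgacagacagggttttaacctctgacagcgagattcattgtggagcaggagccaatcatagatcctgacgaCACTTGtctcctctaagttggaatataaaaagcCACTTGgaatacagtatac
Sesn1: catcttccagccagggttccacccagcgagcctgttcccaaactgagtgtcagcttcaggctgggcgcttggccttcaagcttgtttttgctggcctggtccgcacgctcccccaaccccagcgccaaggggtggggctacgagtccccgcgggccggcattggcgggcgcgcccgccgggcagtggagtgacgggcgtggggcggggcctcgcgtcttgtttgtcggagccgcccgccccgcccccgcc
The *Mstn* window of 300 bases held 4 E-boxes, with their first bases at -229, -174, -52 and -19 from the start, and 72.3% of all 32851 promoters of that length held at least 1. Letters searched on both strands were also the glucocorticoid receptor half-site AGAACA (in 19% of all promoters), a full element of 2 such half-sites facing each other across 3 bases (0.00913%), the FoxO letters GTAAACA (3.65%) and the ATF4 letters TGATGNAA (3.97%). No window of the 6 genes held the half-site, the full element or the ATF4 letters. The FoxO letters occurred in the other start of *Sesn1*, at +23 on the minus strand, which is not the start of the transcript counted here, and *Sesn2* held E-boxes at -212 and -99. Matches are letters in a short window only, and nothing follows from them about where a factor binds.

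To ask which of these genes respond to CORT and which need the receptor in muscle fibres, each gene was compared between treatments within a genotype and between genotypes within a treatment. In GRf/f gastrocnemius CORT was followed by higher *Sesn1*, *Fst* and *Eif4ebp1*, 3 of the 9 genes, and none was lower. Of all 13543 genes tested, which were those above 0 in all 4 libraries of the tissue, 7.89% were called higher and 13.7% lower. In GRmKO gastrocnemius no gene of the group was called higher with CORT and *Fst* was called lower, where 4.07% of all genes were called higher and 13.9% lower. The median log2 change of the 9 genes was 0.30 in GRf/f and -0.15 in GRmKO mice, and that of all genes tested -0.08 and -0.10. The split of all calls depended on the scaling of the libraries. Of the called genes 36.6% were higher in GRf/f mice, and 46.9% with TMM and 49.9% with median-of-ratios factors, and in GRmKO mice the shares were 22.7%, 37.3% and 36.8%.

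**Figure D1:**
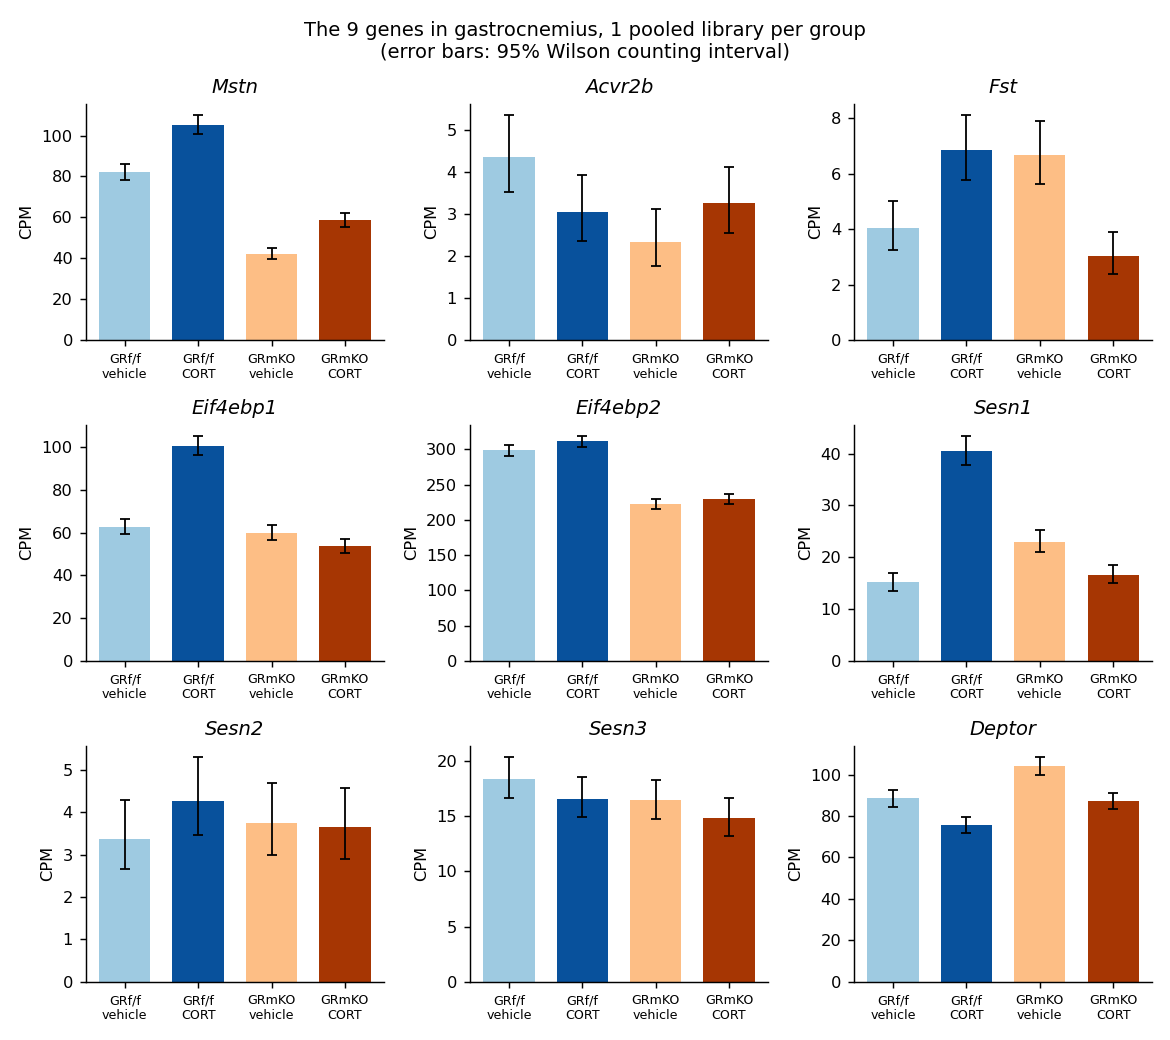
CPM of the 9 genes (vertical axes, starting at 0) in the 4 gastrocnemius libraries, 1 bar per pooled library, with 95% Wilson counting intervals. *Sesn1* and *Eif4ebp1* stood highest in CORT-treated GRf/f muscle, and both GRmKO bars of *Mstn* lay below both GRf/f bars.

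Myostatin itself was the gene of the group that was called lower in GRmKO muscle under both treatments. *Mstn* (ENSMUST00000027269, chromosome 1, 53061640 to 53068079, 3 exons) stood at 82.1 CPM (78.2 to 86.2) in vehicle-treated GRf/f, 105 CPM (101 to 110) in CORT-treated GRf/f, 42.3 CPM (39.5 to 45.2) in vehicle-treated GRmKO and 58.7 CPM (55.4 to 62.1) in CORT-treated GRmKO gastrocnemius. Both GRmKO libraries lay below both GRf/f libraries, and none of the 4 counting intervals overlapped. GRmKO muscle carried 51.4% of the GRf/f level under vehicle, a log2 change of -0.95 (-1.08 to -0.84), and 55.7% under CORT, a change of -0.84 (-0.95 to -0.74), and was called lower both times. Among all genes tested, 3.55% and 7.59% stood further down in these comparisons.

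With CORT, *Mstn* was 1.28 times the vehicle level in GRf/f mice, a log2 change of 0.36 (0.27 to 0.45), and 1.39 times in GRmKO mice, a change of 0.47 (0.35 to 0.60). Neither was called, although both intervals lay above 0. In GRmKO mice the change was 0.61 under TMM and under median-of-ratios factors, which passes the call. The difference of the CORT change between genotypes was 0.11 (-0.05 to 0.27), so it was not detectable at this depth. *Myh4*, the myosin of the fast fibres in which myostatin is mostly made, stood at 35764, 30831, 15392 and 25114 CPM in the same order of libraries and *Myh1*, of another fast fibre type, at 1688, 1579, 1047 and 1016 CPM. The other fibre markers did not share one direction. In GRmKO over GRf/f muscle *Mylpf* was called higher under vehicle, by 1.02, with 0.50 under CORT, and *Pvalb* under CORT, by 0.95, with 0.31 under vehicle. *Actn3* stood at -0.58 under vehicle and was called lower under CORT, by -0.93. *Ckm*, *Acta1* and *Tnnt3* were not called, at -0.49 to 0.26. The 8 markers summed to 121632, 109424, 89000 and 111313 CPM, and the part of these differences in that of *Mstn* was not tested.

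The receptor and the antagonist of myostatin were measured with few reads. *Acvr2b* (ENSMUST00000215746, chromosome 9, 119402118 to 119434995) stood at 4.36 CPM (3.51 to 5.35), 3.05 CPM (2.36 to 3.92), 2.34 CPM (1.76 to 3.11) and 3.25 CPM (2.55 to 4.12) in vehicle- and CORT-treated GRf/f and vehicle- and CORT-treated GRmKO gastrocnemius. Only the highest and the lowest library were apart beyond their intervals, and *Acvr2b* was called lower in GRmKO mice under vehicle, by -0.78 (-1.43 to -0.36), and not under CORT, at 0.08 (-0.44 to 0.62). Its CORT changes were -0.45 (-1.01 to -0.02) in GRf/f and 0.40 (-0.09 to 1.04) in GRmKO mice and neither was called.

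*Fst* (ENSMUST00000223640, chromosome 13, 114452290 to 114458951) stood at 4.04 CPM (3.24 to 5.02) in vehicle-treated GRf/f, 6.85 CPM (5.79 to 8.13) in CORT-treated GRf/f, 6.69 CPM (5.64 to 7.91) in vehicle-treated GRmKO and 3.03 CPM (2.376 to 3.9) in CORT-treated GRmKO gastrocnemius. It thus formed a high and a low pair, each holding 1 library of either genotype, with intervals that overlapped within a pair and not between pairs. CORT was followed by a rise of 0.70 (0.35 to 1.18) in GRf/f mice and a fall of -1.03 (-1.59 to -0.69) in GRmKO mice. GRmKO muscle was accordingly called higher than GRf/f under vehicle, by 0.66 (0.32 to 1.14), and lower under CORT, by -1.06 (-1.63 to -0.73). Each value rests on 61.6 to 134 expected counts. The 6 fibroblast and fibro-adipogenic markers summed to 1505, 512, 2290 and 741 CPM in that order and so were lower with CORT in both genotypes, while *Fst* moved in opposite directions. The 6 leukocyte markers summed to 183.5, 85.16, 552.6 and 141.5 CPM. Of the 4 of them that were tested, all 4 were called higher in GRmKO than in GRf/f muscle under vehicle, with a median log2 change of 1.63, and all 4 lower with CORT in GRmKO mice, with a median of -1.68, which are the directions of *Fst* in these comparisons. In the other comparisons they did not share the direction of *Fst*. With CORT in GRf/f mice 1 of them, *Cd74*, was called and was lower, while *Fst* rose. In GRmKO over GRf/f muscle under CORT 3 were called higher and 1, *Adgre1*, lower, with a median of 0.69, while *Fst* was called lower. *Itgam* was listed at 0 in vehicle-treated GRf/f and CORT-treated GRmKO muscle, and *Ptprc* in the latter. Satellite cell markers summed to 19.8, 12.4, 27.6 and 21.7 CPM and endothelial markers to 311, 265, 341 and 226 CPM. The part of these cells in the *Fst* values was not tested.

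The pair of eIF4E-binding proteins did not move together. *Eif4ebp1* (ENSMUST00000033880, chromosome 8, 27260329 to 27276674), which encodes 4E-BP1, stood at 62.8 CPM (59.4 to 66.4), 101 CPM (96.4 to 105), 60.1 CPM (56.7 to 63.5) and 53.5 CPM (50.5 to 56.8) in vehicle- and CORT-treated GRf/f and vehicle- and CORT-treated GRmKO gastrocnemius. CORT-treated GRf/f muscle stood alone above the others. The CORT change was 0.68 (0.58 to 0.79) in GRf/f mice, which was called higher, and -0.16 (-0.28 to -0.05) in GRmKO mice, which was not and came to -0.02 under TMM factors. The genotypes differed by -0.06 (-0.18 to 0.05) under vehicle and by -0.91 (-1.02 to -0.80) under CORT, where GRmKO was called lower.

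*Eif4ebp2* (ENSMUST00000020288, chromosome 10, 61428491 to 61452661), which encodes 4E-BP2, stood at 298 CPM (291 to 306), 311 CPM (303 to 319), 222 CPM (216 to 229) and 229.5 CPM (223 to 236) in the same order. Both GRmKO libraries were lower than both GRf/f libraries, by -0.42 (-0.48 to -0.37) under vehicle and -0.44 (-0.49 to -0.38) under CORT, which is under 1.5-fold. Its CORT changes were 0.06 (0.01 to 0.11) and 0.05 (-0.01 to 0.11), and neither was called. The ratio of *Eif4ebp1* to *Eif4ebp2* per transcript length, which needs no scaling between libraries, was 0.61 (0.573 to 0.648) in vehicle-treated GRf/f and 0.938 (0.891 to 0.987) in CORT-treated GRf/f muscle, and 0.782 (0.733 to 0.833) and 0.676 (0.632 to 0.722) in the GRmKO libraries. CORT thus went with a higher ratio in one genotype and a lower ratio in the other.

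Fat makes much more *Eif4ebp1* than muscle does, and the 8 adipocyte markers summed to 267 CPM in vehicle- and 667 CPM in CORT-treated GRf/f muscle and to 366.5 and 524.8 CPM in GRmKO muscle. In CORT-treated GRf/f muscle these markers stood at a median of 2.73% and at most 5.91% of their level in the gonadal WAT of the same group. Those shares of the *Eif4ebp1* level of that fat, 319 CPM, are 8.73 and 18.9 CPM, beside the 101 CPM measured in muscle and the 62.8 CPM under vehicle. For *Sesn1* they are 0.906 and 1.96 CPM, beside 40.5 CPM. Reckoned in the same way from the fat of each group, the shares for *Eif4ebp1* came to 3.24 and 7.05 CPM in vehicle-treated GRf/f muscle. In vehicle-treated GRmKO muscle they came to 3.22 and 11.8 CPM, beside 60.05 CPM. In CORT-treated GRmKO muscle they came to 7.25 and 19 CPM, beside 53.54 CPM. The part of fat cells in these levels was not tested. *Cidec*, a lipid droplet protein of adipocytes, was listed at 0 in vehicle-treated GRmKO muscle. Hepatocyte markers summed to 7.11 and 10.5 CPM in GRf/f and to 92.3 and 324 CPM in vehicle- and CORT-treated GRmKO muscle, where they were at most 0.33% of their liver level.

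The 3 sestrins differed in their response, and *Sesn1* had the widest range of the 9 genes in gastrocnemius. *Sesn1* (ENSMUST00000041438, chromosome 10, 41809935 to 41908424) stood at 15.2 CPM (13.6 to 17) in vehicle-treated GRf/f, 40.5 CPM (37.7 to 43.4) in CORT-treated GRf/f, 23 CPM (21 to 25.2) in vehicle-treated GRmKO and 16.6 CPM (15 to 18.5) in CORT-treated GRmKO muscle. The CORT-treated GRf/f library stood far above the rest, and the lowest 2 libraries overlapped. The CORT change was 1.38 (1.22 to 1.61) in GRf/f mice, or 2.66-fold, and 1.59% of all genes tested rose more. In GRmKO mice it was -0.45 (-0.67 to -0.26), which was not called. GRmKO muscle was 1.51 times the GRf/f level under vehicle, a change of 0.58 (0.39 to 0.81) that fell just short of a call once 0.5 CPM had been added, and under CORT it was called lower, at 41.1% of the GRf/f level and a change of -1.26 (-1.47 to -1.10).

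*Sesn2* (ENSMUST00000030724, chromosome 4, 132492032 to 132510501) stood at 3.37, 4.27, 3.75 and 3.64 CPM in vehicle- and CORT-treated GRf/f and vehicle- and CORT-treated GRmKO muscle, with counting intervals that all overlapped. *Sesn3* (ENSMUST00000208222, chromosome 9, 14275067 to 14333101) stood at 18.4, 16.6, 16.4 and 14.8 CPM, with intervals that overlapped or, for the highest and the lowest library, touched. Neither was called in any comparison of gastrocnemius, and for *Sesn2* the interval of the CORT change in GRf/f mice, -0.14 to 0.83, does not shut out a rise of more than 1.5-fold. Per transcript length *Sesn1* was 2.9 times *Sesn3* (2.48 to 3.38) in vehicle-treated GRf/f, 8.55 times (7.51 to 9.77) in CORT-treated GRf/f, 4.91 times (4.25 to 5.66) in vehicle-treated GRmKO and 3.94 times (3.36 to 4.62) in CORT-treated GRmKO muscle. *Sesn1* was thus the leading sestrin transcript of each muscle library by this measure.

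*Deptor* (ENSMUST00000096433, chromosome 15, 55112317 to 55259271) stood at 88.5 CPM (84.4 to 92.7), 75.5 CPM (71.7 to 79.5), 104 CPM (99.7 to 109) and 87.2 CPM (83.2 to 91.3) in the same order. It was not called in gastrocnemius. The CORT changes, -0.23 (-0.33 to -0.13) and -0.25 (-0.35 to -0.16), lay close together, with a difference of -0.03 (-0.16 to 0.11). The genotype changes of 0.23 and 0.21 were also small.

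**Figure D2:**
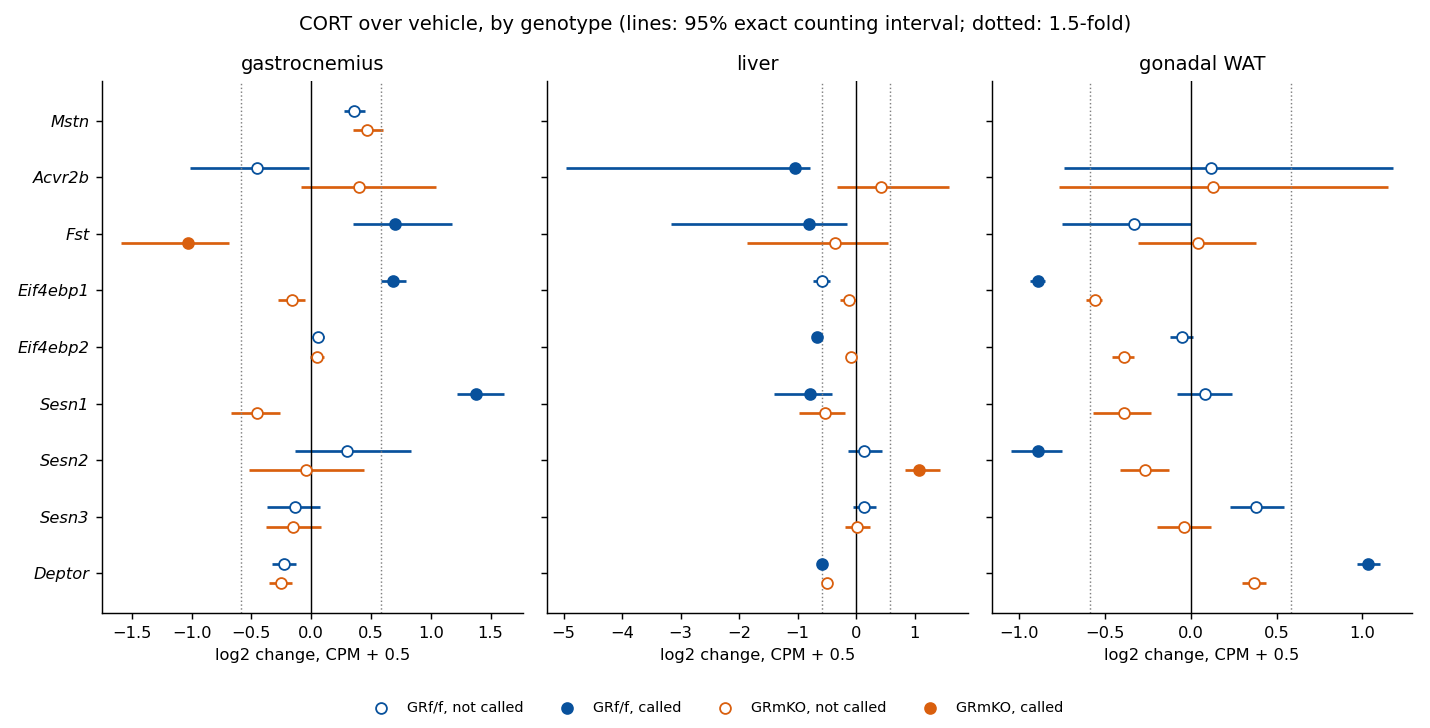
Log2 change of CPM + 0.5 with CORT (horizontal axes, which differ between the tissues) for the 9 genes in 3 tissues, GRf/f in blue and GRmKO in orange, with 95% exact counting intervals as lines, filled points for called genes and dotted lines at 1.5-fold. In gastrocnemius *Fst*, *Eif4ebp1* and *Sesn1* lay to the right in GRf/f and to the left in GRmKO mice, while the points of *Mstn*, *Eif4ebp2*, *Sesn3* and *Deptor* lay close together.

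The change with CORT differed between genotypes beyond counting error for 4 of the 9 genes in gastrocnemius, where 40.4% of all 13543 genes did so. Changes of opposite sign in the genotypes, with both intervals leaving out 0, were seen for 3 of the 9 genes and for 9.2% of all genes. GRmKO minus GRf/f was -1.84 (-2.12 to -1.56) for *Sesn1*, -1.72 (-2.31 to -1.13) for *Fst*, -0.84 for *Eif4ebp1*, with an interval ending at -0.69, and 0.85 (0.13 to 1.57) for *Acvr2b*. For *Eif4ebp2*, *Sesn3* and *Deptor* the differences were within 0.03 of 0. Without replicates these differences could not be tested against the spread between mice.

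Read by genotype, GRmKO muscle had 1 gene of the group called higher, *Fst*, and 2 called lower, *Mstn* and *Acvr2b*, under vehicle. Of all genes 14.2% were called higher and 8.94% lower there. Under CORT none was higher and *Mstn*, *Fst*, *Eif4ebp1* and *Sesn1* were lower, 4 of 9, where 13.6% of all genes were called higher and 13% lower. The median log2 change of the 9 genes was -0.06 under vehicle and -0.44 under CORT, and that of all genes 0.07 and 0.02. The CORT-treated GRf/f library enters both the comparison with vehicle and the one with GRmKO mice, so the rise of *Sesn1*, *Fst* and *Eif4ebp1* in the first and their lower level in the second are not separate evidence.

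**Figure D3:**
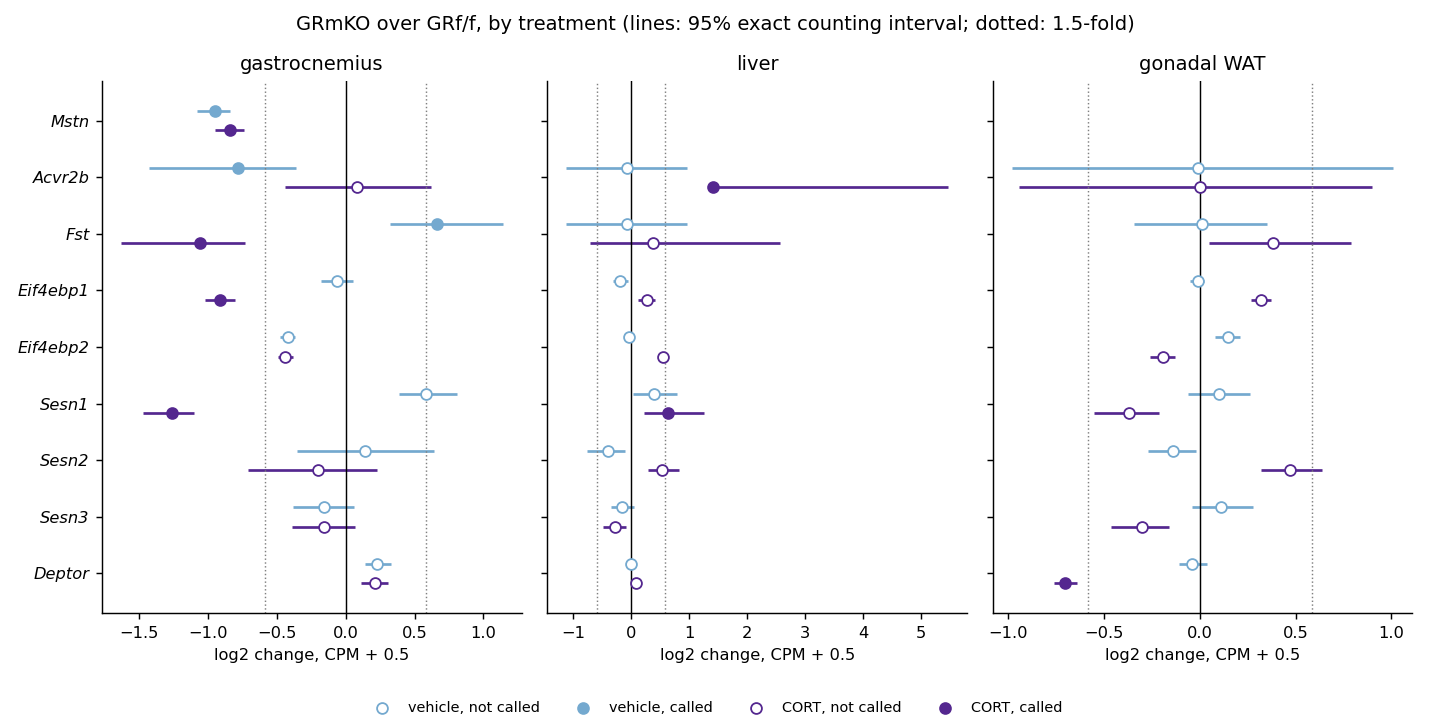
Log2 change of CPM + 0.5 in GRmKO over GRf/f mice (horizontal axes, which differ between the tissues), under vehicle in light blue and under CORT in purple, with 95% exact counting intervals as lines, filled points for called genes and dotted lines at 1.5-fold. *Mstn* lay to the left in gastrocnemius under both treatments, *Sesn1* and *Fst* crossed from right to left, and under vehicle no gene was called in liver or gonadal WAT.

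The balance between myostatin and its partners was also compared within libraries. Per transcript length *Mstn* was 21.3 times *Fst* (17 to 27) in vehicle-treated GRf/f, 16.1 times (13.5 to 19.3) in CORT-treated GRf/f, 6.62 times (5.52 to 8.01) in vehicle-treated GRmKO and 20.3 times (15.6 to 26.5) in CORT-treated GRmKO muscle. The vehicle-treated GRmKO library stood apart from the others, having the lowest *Mstn* and high *Fst*. *Mstn* was 40.6 times *Acvr2b* (31.4 to 53.6) in CORT-treated GRf/f muscle and 21.2 to 22.1 times in the other 3 libraries, so here it was the CORT-treated GRf/f library that stood apart.

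The genes most like each of the 3 widest-ranging genes were sought by the distance between centred log2 values over the 4 gastrocnemius libraries, among 7137 genes of at least 10 CPM on average. For *Sesn1* they were *Atp2c1*, a calcium and manganese pump of the Golgi, at a distance of 0.15, *Mid1ip1*, an activator of fatty acid synthesis, at 0.19, and *Lmod2*, an actin nucleator of striated muscle, at 0.19. *Lmod2* stood at 130.2, 298, 204.5 and 134.5 CPM. For *Mstn* they were *Rif1*, *Psg16* and *Rps6ka3*, the gene of the kinase RSK2, at 0.09, 0.10 and 0.13, and for *Fst* they were *Eapp*, *Slc16a9* and *Rabgap1* at 0.18, 0.24 and 0.29. With only 4 libraries to match, such likeness is a description.

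Of the other genes listed for these pathways, 87 of 91 were tested in gastrocnemius. With CORT 9 were called higher and 13 lower in GRf/f mice, which is 10.3% and 14.9%, and 4 higher and 10 lower in GRmKO mice, which is 4.6% and 11.5%. Between genotypes 13 were higher and 8 lower under vehicle, or 14.9% and 9.2%, and 13 higher and 13 lower under CORT, or 14.9% each. These shares lie near those of all genes given above. The medians of their log2 changes, -0.00, -0.06, 0.01 and -0.03, lay near those of all genes.

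On the side of myostatin, the type I receptors *Acvr1b* and *Tgfbr1* were called higher with CORT in GRf/f mice, at 59.6 to 97.8 CPM and 32.5 to 52.1 CPM, and *Acvr2a* was not. In GRmKO mice none of the 3 was called with CORT. *Inhbb*, the subunit of activin B, rose with CORT in both genotypes, by 1.39 (1.09 to 2.04) in GRf/f and 0.89 (0.59 to 1.35) in GRmKO mice. *Gdf11*, the closest relative of *Mstn*, and *Smad3*, a SMAD that transmits its signal, were called lower with CORT in GRf/f mice and not in GRmKO mice, with changes of -1.17 and 0.14 for *Gdf11* and -1.15 and -0.16 for *Smad3*. Among the antagonists *Fstl3* was called higher in GRf/f mice, at 3.02 and 4.81 CPM, and *Fstl1* and *Dcn*, which fibroblasts express, were lower with CORT in both genotypes.

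On the side of translation and mTORC1, none of the 9 other genes tested for cap-dependent initiation was called with CORT in GRf/f mice. They hold inhibitors such as *Pdcd4* beside the initiation factors, and their median change was 0.29. *Ddit4*, which encodes the mTORC1 inhibitor REDD1, fell with CORT in both genotypes, from 27.8 to 7.52 CPM in GRf/f and from 41.2 to 4.72 CPM in GRmKO mice. The arginine sensor gene *Castor1* was also lower in both, by -1.34 and by -1.42 (-2.06 to -1.13), and *Prkag3*, the AMPK subunit of fast muscle, fell by -1.57 (-1.67 to -1.49) in GRf/f mice and stood at -0.08 in GRmKO mice. *Prr5*, of mTOR complex 2, was lower in both, by -2.81 (-4.91 to -2.78) and -2.17 (-3.25 to -1.96). *Mapkap1*, of the same complex, moved in opposite directions, by 1.94 (1.71 to 2.45) and -0.93. In GRmKO mice *Tsc2* rose by 0.68 (0.55 to 0.84) and *Tsc1*, its partner in the complex that switches off Rheb, was called lower than in GRf/f mice under CORT, by -1.67 (-2.04 to -1.46). Under vehicle GRmKO muscle had more *Ddit4l*, which encodes REDD2, and *Prkab1*, an AMPK subunit, by 1.07 (1.02 to 1.13) and 1.10 (0.84 to 1.49), and less *Rragd*, a Rag GTPase, by -1.47 (-1.57 to -1.39).

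Among 13 stress regulators known to act on sestrin genes or beside them, *Cdkn1a*, a p53 target, rose with CORT in GRf/f mice from 37.3 to 188 CPM, and stood at 37.5 and 44.6 CPM in GRmKO mice. *Foxo1* and *Foxo3*, transcription factors of atrophy, were called higher with CORT in GRf/f mice, by 0.75 and 0.66, and stood at -0.15 and -0.17 in GRmKO mice. *Foxo1* was called lower in GRmKO muscle under vehicle and under CORT, by -1.23 (-1.37 to -1.12) and -2.12 (-2.26 to -2.02). *Chac1*, a target of ATF4, was lower with CORT in GRf/f mice, by -1.46, and higher in GRmKO mice, by 1.62 (1.51 to 1.77), and *Atf4* itself was not called. Other genes of that list went the other way. *Asns* was called higher with CORT in GRf/f mice, by 0.99, with 0.16 in GRmKO mice. *Trib3* was called lower in GRmKO mice, by -0.80, with -0.46 in GRf/f mice. *Eif2ak4*, the gene of the amino acid sensor GCN2, was higher in GRmKO mice under CORT, by 1.01 (0.65 to 1.68). The 4 untested genes were each listed at 0 in 1 library or more. Among them were *Mlst8*, 0 in CORT-treated GRf/f and 8.87 to 12.1 CPM in the other libraries, and *Trp53*, 0 in vehicle-treated GRf/f and 12.8 to 21.8 CPM in the others. Since most cells use both genes, a value of 0 there may be a failed estimate for the transcript that was kept, and whether such estimates touch the 9 genes was not tested.

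**Figure D4:**
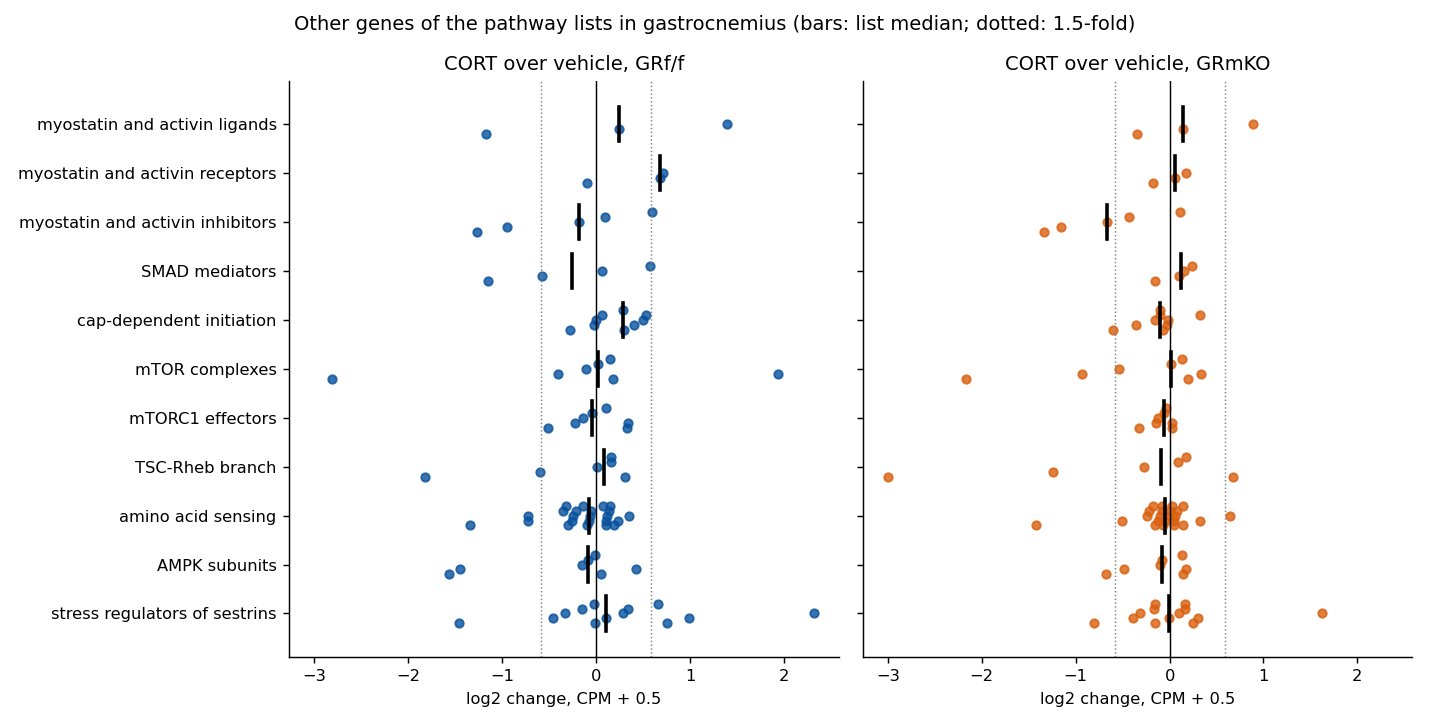
Log2 change of CPM + 0.5 with CORT in gastrocnemius (horizontal axes) for the tested genes of each pathway list other than the 9 genes, 1 point per gene, GRf/f on the left and GRmKO on the right, with black bars at the list median and dotted lines at 1.5-fold. The medians of the receptors and of the genes for cap-dependent initiation lay at 0.68 and 0.29 in GRf/f and at 0.06 and -0.10 in GRmKO mice.

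The liver, where the receptor gene was intact in both genotypes, showed another pattern. *Mstn* was listed at 0 in all 4 liver libraries. This 0 was taken as a true count, which was not tested, and 3 counts per library as the floor. Muscle then held at least 573 and 719 times as much in vehicle- and CORT-treated GRf/f mice. In vehicle- and CORT-treated GRmKO mice it held at least 291 and 406 times as much. The other 8 genes were tested. With CORT 5 were called lower in GRf/f mice and none higher, where 13.5% of the 12485 genes tested were called higher and 12.7% lower, and the median of the 8 was -0.63 against 0.00 for all genes. In GRmKO liver 1 was higher and none lower, where 9.1% of all genes were called higher and 7.83% lower.

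*Eif4ebp2* stood at 236, 148, 230.3 and 218 CPM in vehicle- and CORT-treated GRf/f and vehicle- and CORT-treated GRmKO liver, so CORT-treated GRf/f liver alone was low, by -0.67 (-0.74 to -0.61). *Eif4ebp1* stood at 51.6, 34.2, 45.5 and 41.4 CPM, and its change of -0.58 (-0.73 to -0.45) in GRf/f mice just missed a call. *Deptor* stood at 193, 128, 193 and 136.5 CPM and stood lower with CORT in either genotype, with a change of -0.59 (-0.66 to -0.52) in GRf/f mice that just made a call and one of -0.50 (-0.57 to -0.43) in GRmKO mice that did not. Of these 3 genes *Deptor* had the same pattern in both genotypes, and *Eif4ebp2* and *Eif4ebp1* differed between them by 0.59 (0.51 to 0.68) and 0.45 (0.26 to 0.64).

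*Sesn1*, which rose in GRf/f muscle, was called lower with CORT in GRf/f liver, standing at 4.9, 2.65, 6.59 and 4.4 CPM in the same order, with changes of -0.78 (-1.40 to -0.41) and -0.53 (-0.98 to -0.19). *Sesn2* stood at 8.98, 9.95, 6.67 and 14.7 CPM and was the gene called higher in GRmKO liver, by 1.08 (0.84 to 1.44), against 0.14 (-0.14 to 0.44) in GRf/f mice. The difference between the genotypes was 0.94 (0.54 to 1.35). *Sesn3* stood at 18.2 to 22.3 CPM and was not called. *Acvr2b* and *Fst* were called lower with CORT in GRf/f liver from few reads. *Acvr2b* had 18.3 and 3.38 expected counts, a ratio of 0.189 and a log2 interval of -4.96 to -0.78, and *Fst* had 18.5 and 5.99, a ratio of 0.332 and an interval of -3.17 to -0.16.

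Between genotypes no gene of the group was called in liver under vehicle, where 5.41% of all genes were called higher and 3.87% lower. Under CORT *Acvr2b*, by 1.42 (1.39 to 5.46) from the same 3.38 counts, and *Sesn1*, by 0.64 (0.23 to 1.25), were called higher in GRmKO mice. None was called lower, where 8.65% of all genes were called higher and 6.87% lower. The change of *Sesn1* came to 0.57 under TMM factors, median-of-ratios factors or a pseudocount of 1 CPM, which is not a call. The share of higher genes among those called there was 55.7%, and 45% under TMM and under median-of-ratios factors. Leukocyte markers summed to 132, 24.1, 107 and 42.3 CPM in the liver libraries and endothelial markers to 68.1, 41.5, 67.8 and 57.7 CPM, and their part in these changes was not tested.

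**Figure D5:**
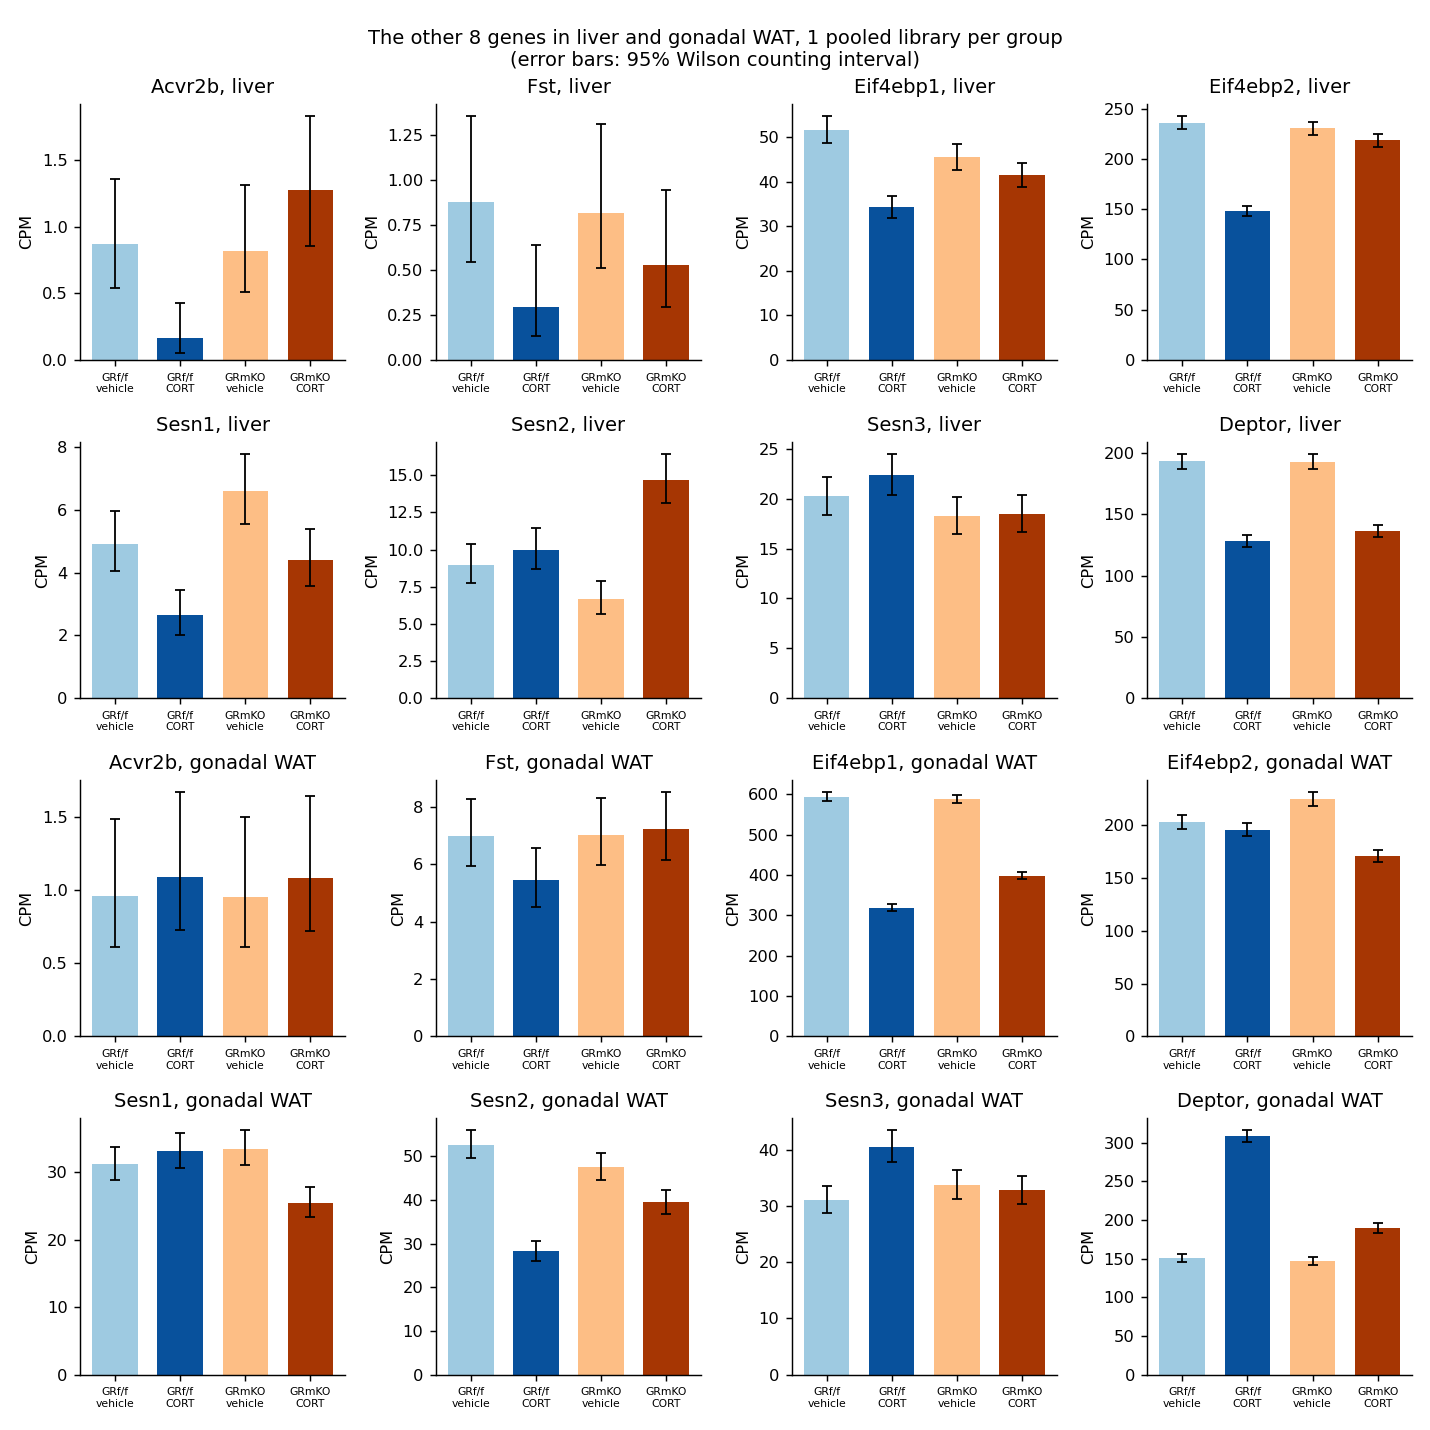
CPM (vertical axes, starting at 0 and differing between panels) of the 8 genes other than *Mstn* in liver (upper 2 rows) and gonadal WAT (lower 2 rows), 1 bar per pooled library, with 95% Wilson counting intervals. CORT-treated GRf/f libraries had the lowest *Eif4ebp2* in liver, the lowest *Eif4ebp1* and *Sesn2* in gonadal WAT and the highest *Deptor* in gonadal WAT.

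In gonadal WAT *Mstn* had at most 2 expected counts, and the transcript kept there (ENSMUST00000191197, with 189 codons) is shorter in its coding part than that of muscle and liver (376 codons). Of the other 8 genes, 1 was called higher and 2 lower with CORT in GRf/f mice, where 13% of the 14218 genes tested were called higher and 18.5% lower. None was called in GRmKO mice, where 8.29% of all genes were called higher and 15.8% lower. There the share of higher genes among those called was 34.4%, and 48.4% under TMM and 47.9% under median-of-ratios factors. The medians of the 8 genes were 0.01 and -0.15, and those of all genes -0.07 and -0.12.

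*Deptor* stood at 151 CPM (145 to 156), 308 CPM (301 to 316), 147 CPM (142 to 152) and 189.8 CPM (184 to 196) in vehicle- and CORT-treated GRf/f and vehicle- and CORT-treated GRmKO fat. It rose 2.05-fold with CORT in GRf/f mice, by 1.03 (0.97 to 1.10), and its change in GRmKO mice was 0.37 (0.30 to 0.44), a difference of -0.66 (-0.75 to -0.57). *Eif4ebp1* was far more abundant in fat than in the other tissues and stood at 594, 319, 588 and 398 CPM. It fell with CORT in GRf/f mice, by -0.89 (-0.94 to -0.85), and changed by -0.56 (-0.61 to -0.52) in GRmKO mice, which was not called. Per transcript length it was 8.48 times *Eif4ebp2* (8.18 to 8.79) in vehicle-treated GRf/f and 4.74 times (4.55 to 4.93) in CORT-treated GRf/f fat, and 7.6 and 6.74 times in the GRmKO libraries. *Eif4ebp2* itself stood at 171 to 224 CPM.

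*Sesn2* stood at 52.7, 28.3, 47.6 and 39.5 CPM and fell with CORT in GRf/f mice, by -0.89 (-1.05 to -0.75), with -0.27 (-0.41 to -0.13) in GRmKO mice. *Sesn1* stood at 25.5 to 33.5 CPM, *Sesn3* at 31.1 to 40.5 CPM, *Fst* at 5.45 to 7.21 CPM and *Acvr2b* at 0.953 to 1.09 CPM, and none of these was called in fat. Over the 3 tissues, *Sesn1*, *Fst*, *Eif4ebp1* and *Deptor* were called in opposite directions in a pair of tissues with CORT in GRf/f mice. They are 4 of the 8 genes of the group tested in at least 2 tissues, beside 7.19% of all 13520 genes so tested. In fat, for *Deptor*, *Eif4ebp1* and *Sesn2*, the CORT-treated GRf/f library was the furthest from the vehicle libraries and the CORT-treated GRmKO library lay between. Between genotypes no gene was called under vehicle, where 4.35% of all genes were called higher and 4.57% lower, and *Deptor* alone was called, as lower in GRmKO mice, under CORT, by -0.70 (-0.76 to -0.64), where 4.66% were called higher and 5.12% lower. Endothelial markers summed to 623, 231, 577 and 311 CPM in the fat libraries, an order that also placed CORT-treated GRf/f fat furthest from vehicle, and adipocyte markers to 30773, 26469, 32656 and 26269 CPM. Leukocyte markers summed to 1166, 1521, 1503 and 1588 CPM, and of the 4 tested *Adgre1*, *Lyz2* and *Cd68* were called higher and *Cd74* lower with CORT in both genotypes, with medians of 1.42 in GRf/f and 0.89 in GRmKO mice. The part of these cells in the changes was not tested.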

How the data were processed

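RNA was measured in 12 pooled libraries of gastrocnemius, liver and gonadal WAT. Per the labels and the study's methods, the authors made paired 100-base reads and ran Salmon 1.2.1 on GENCODE M20 protein-coding transcripts (mm10, the build GRCm38) and imported them with tximport (lengthScaledTPM) in R 3.5.0. The deposited values are expected counts, unscaled between libraries, with 1 transcript kept per gene symbol; the sources do not settle whether transcripts of a gene had been added up before. Here expected counts were divided by the library total to give CPM, with counts rounded for intervals (Wilson and exact, 95%; Python 3.11.15, scipy 1.17.1). The call rule (1.5-fold with 0.5 CPM added, interval leaving out 1) was tested on simulated counts that held counting error only. Without spread between pools, that test could not show how often calls are false with 1 library per group. The study's NOISeq was not used, because its noise is simulated. TMM factors came from edgeR 4.0.16. Levels per length used GENCODE M21 transcript lengths, and all 26300 transcript identifiers were found there. The genes and lists were chosen with earlier results of these data known. Besides the 9 genes and *Nr3c1*, named genes were the 3 largest called rises and falls of the pathway lists per gastrocnemius comparison and the 3 genes most like each gene ranging by at least 1 log2 unit; further pathway genes were named after their values were seen.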

Additional observations from a re-analysis of the deposited data

Results flagged for a closer look

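With CORT, the log2 changes of 3 of the 9 genes had opposite signs in the gastrocnemius of the 2 genotypes, with both counting intervals leaving out no change, as had those of 9.2% of all 13543 genes tested. The log2 change was 0.70 in GRf/f and -1.03 in GRmKO mice for *Fst*, 0.68 and -0.16 for *Eif4ebp1*, and 1.38 and -0.45 for *Sesn1*. All 3 were called in GRf/f mice, and *Fst* alone of them in GRmKO mice. For *Eif4ebp1* the change in GRmKO mice was -0.02 under TMM and under median-of-ratios factors, so that its opposite sign rests on the scaling.

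Within GRf/f mice 4 of the 8 genes tested in at least 2 tissues were called in opposite directions in 2 tissues, as were 7.19% of all 13520 genes so tested. *Sesn1* changed by 1.38 in gastrocnemius and -0.78 in liver, *Fst* by 0.70 in gastrocnemius and -0.80 in liver, where it had few reads, *Eif4ebp1* by 0.68 in gastrocnemius and -0.89 in gonadal WAT, and *Deptor* by -0.59 in liver and 1.03 in gonadal WAT. With 1 library per group, none of these differences was tested.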

How the results depend on the processing

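Of 500 recomputed log2 changes of the 9 genes, 458 stayed within the counting interval, 42 moved and 0 of the called ones changed sign. The alternatives were TMM factors, median-of-ratios factors, totals without the 10 most abundant genes, no pseudocount and a pseudocount of 1 CPM. TMM and median-of-ratios factors each raised the calls for CORT in GRmKO gastrocnemius from 1 to 2, by adding *Mstn*, and shifted the median of all well-measured genes there from -0.08 to 0.06. In liver *Eif4ebp1* was gained as lower with CORT in GRf/f mice, at -0.59 to -0.62, under the 3 other scalings and with no pseudocount, *Sesn1* was gained as lower with CORT in GRmKO mice under TMM factors, at -0.59, and with a pseudocount of 1 CPM *Fst* was lost in GRf/f mice. *Sesn1* was lost as higher in GRmKO liver under CORT, at 0.57, under TMM factors, median-of-ratios factors and a pseudocount of 1 CPM, and gained for genotype under vehicle in gastrocnemius with no pseudocount, at 0.60. The median of all well-measured genes moved by 0.10 under median-of-ratios factors in GRf/f gastrocnemius, and by 0.13 and 0.12 under TMM and median-of-ratios factors for CORT in GRmKO gonadal WAT. A 2-fold limit left 1 of 3 calls for CORT in GRf/f gastrocnemius, 0 of 3 for genotype under vehicle, 2 of 4 for genotype under CORT, 3 of 8 in liver and 1 of 4 in gonadal WAT. A mean of at least 50 counts left 5 of 8 in liver, since *Acvr2b* and *Fst* were no longer tested there. No replicate could be left out and no paired analysis was possible because each group had 1 library. Depth limits *Acvr2b*, *Fst* and *Sesn2* most, with 46.9 to 134 expected counts per gastrocnemius library.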
